A study of Mus musculus with 24 samples.

Results

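Cohesin is a ring of proteins that encloses DNA. The genes described here are those of its mitotic form: Smc1a, Smc3 and Rad21, which make the ring itself, and Stag1 and Stag2, 2 alternative subunits of which each ring carries 1. All 5 were found by name among the 55341 genes of the count table, and all 5 passed the filter on low counts, which kept 16934 genes. Across the 12 groups of samples Stag1 was the member whose RNA changed with IPTG and with the NIPBL construct. It was 1.49-fold higher when a hairpin against NIPBL was induced, and lower again when wild-type NIPBL was supplied. Stag2 and the 3 ring genes passed no test in those comparisons.

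SMC1A and SMC3 are long coiled-coil ATPases joined at a hinge, and RAD21, the kleisin, bridges their heads and is the part that separase cuts at anaphase. STAG1 and STAG2 bind RAD21 and make contacts with DNA, with CTCF and with other proteins on chromatin. Cohesin holds sister chromatids together, and in interphase it extrudes loops of chromatin after loading by NIPBL and MAU2. STAG1 and STAG2 can stand in for each other in part, and cells that have lost STAG2, as some cancers have, depend on STAG1.

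The samples are 24 RNA-seq libraries of 3134 cells, a mouse mammary adenocarcinoma line. Every group carried a transduced hairpin, shNIPBL, under control of IPTG, and a construct integrated with piggyBac. The cells were in 6 states, each with 2 replicates and 2 treatments. The states were empty vector without IPTG, and empty vector, wild-type NIPBL, C1, C2 or C1-C2 with 1 mM IPTG for 3 days. The last 3 are NIPBL mutants whose changes the labels do not give. The cells spent 3 days in charcoal-stripped serum and received ethanol or 100 nM dexamethasone, a synthetic glucocorticoid, for the last 2 hours. No group received IPTG without the hairpin, so loss of NIPBL and an effect of IPTG or of the hairpin cannot be told apart in the knockdown comparisons. Each construct is named for 1 line only, and no separate clones are given. The p-values thus rest on the spread between the 2 cultures within a group, pooled over the 12 groups, and not on spread between lines. In bulk RNA, fewer cells of a type and less RNA per cell cannot be told apart.

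Nipbl itself was at 177 and 186 CPM (counts scaled by library size) without IPTG in ethanol and at 62.6 and 65.0 CPM with IPTG and empty vector, a 2.84-fold fall (adjusted p = 1.39e-08, edgeR). In dexamethasone it fell 2.75-fold, and over all 20 IPTG libraries the mouse Nipbl gene lay between 48.0 and 73.3 CPM, wild-type NIPBL included. The constructs were thus not seen as a rise in the counts of this gene. How much of each construct the cells made was not measured here. Depth was 32.5 to 42.7 M counts per library in ethanol and 45.0 to 72.9 M in dexamethasone. The ethanol and the dexamethasone libraries carry library numbers from separate ranges. What the numbers stand for is not given in the sources used here, so dexamethasone and whatever they mark cannot be told apart. Agreement within a group was poorest for wild-type NIPBL in dexamethasone, with a chi-square between its libraries of 20.8 per degree of freedom, the highest of the 12 groups, the lowest being 5.46. For 1 library, the second of C1-C2 in ethanol, the treatment label names dexamethasone against its title, by which it was grouped. Mammary epithelial markers were near 0, with Epcam at 0 counts in every library and Krt8 at 0.343 to 0.767 CPM. The fibroblast or mesenchymal markers were mixed. Vim, Col1a2 and Pdgfrb reached at least 3327, 1386 and 107 CPM, whereas Col1a1 stayed at or below 2.05 CPM and Thy1 had 2 counts in all. The leukocyte marker Ptprc and the endothelial markers Pecam1 and Cdh5 stayed at or below 0.0285, 0.181 and 0.294 CPM. Cd68, the other leukocyte marker looked at, lay between 7.52 and 11.4 CPM.

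Stag1 and Stag2 are paralogs, so it matters whether a read can be assigned to the right one. In mm10 with GENCODE vM21, Stag1 (ENSMUSG00000037286.15) spans 361.6 kb of chromosome 9, 100597798 to 100959375 on the plus strand, with 11781 bases of exon. Stag2 (ENSMUSG00000025862.14) spans 127.9 kb of chromosome X, 42149317 to 42277185 on the plus strand, with 8273 bases of exon. The longest run that their coding sequences share, each taken from 1 transcript, is 23 bases. It lies in the stretch of 83 bases below, which joins exons 11 and 12 in both genes and is shown because it holds that run. Stretches with fewer differences were not searched for. Capitals mark the 17 bases that differ.
Stag1: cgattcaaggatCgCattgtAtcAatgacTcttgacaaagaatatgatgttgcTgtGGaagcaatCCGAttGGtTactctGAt
Stag2: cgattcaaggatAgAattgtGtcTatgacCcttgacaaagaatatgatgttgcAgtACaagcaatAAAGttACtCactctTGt
The Stag1 stretch is coded between 100845106 and 100848732 of chromosome 9 and the Stag2 stretch between 42229214 and 42229392 of chromosome X. No window of 50 bases of any Stag1 transcript occurs in a Stag2 transcript. Of the Stag1 windows 4 of 12200 occur in transcripts of some other gene, and of the Stag2 windows 1 of 8263. The read length is not given in the sources used here.

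Of the other members, Smc1a and Rad21 are at least as distinct, and Smc3 is less so. Smc1a (ENSMUSG00000041133.11, chromosome X, 152016428 to 152062694, plus strand) and Rad21 (ENSMUSG00000022314.10, chromosome 15, 51962240 to 51991747, minus strand) share 0 of 5810 and 0 of 4181 windows of 50 bases with other genes. Smc3 (ENSMUSG00000024974.10, chromosome 19, 53600398 to 53645833, plus strand) shares 75 of 5489, or 1.37%, with 3 unnamed genes. Inside Stag1 lie 3 unnamed gene models on the same strand, with at most 194 counts in a library, where Stag1 has 4943 to 13256. The members are poor in GC. Stag2 (38.9%) stands at percentile 3.36 of 12315 expressed genes, Stag1 (41.3%) at 9.21, Smc3 (41.5%) at 9.78, Rad21 (46.4%) at 32.7 and Smc1a (47.2%) at 37.2.

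Per kb of exon, Rad21 was the most abundant member in every library. Over the 24 libraries its median was 85.7 CPM per kb, followed by Smc1a at 28.4, Smc3 at 25.4, Stag2 at 21.6 and Stag1 at 15.2 CPM per kb. The 2 SMC genes, whose proteins pair 1 to 1, had nearly equal RNA in ethanol, with a ratio of Smc1a to Smc3 per kb between 1.01 and 1.07 in the 12 libraries. In dexamethasone that ratio was 1.11 to 1.28. Rad21 exceeded Smc3 per kb by 3.03 to 3.35-fold in ethanol and by 3.35 to 3.83-fold in dexamethasone. Smc3 is poorer in GC than Smc1a and Rad21, and GC content moved with the treatment, as described below. The ratios were not corrected for that trend, and their shift between treatments was not tested. Stag2 was above Stag1 per kb in every library. Over the cell states Smc1a ranged from 160.5 to 178 CPM in ethanol and from 144 to 171 CPM in dexamethasone, and Smc3 from 147 to 166 and from 118 to 134 CPM. Rad21 lay between 355 and 404 CPM in ethanol and between 327 and 367 CPM in dexamethasone. The germline subunits were all but absent: over the 24 libraries Smc1b had 25 counts in all, Stag3 16, Rec8 3 and Rad21l 2, and none passed the filter.

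**Figure D1:**
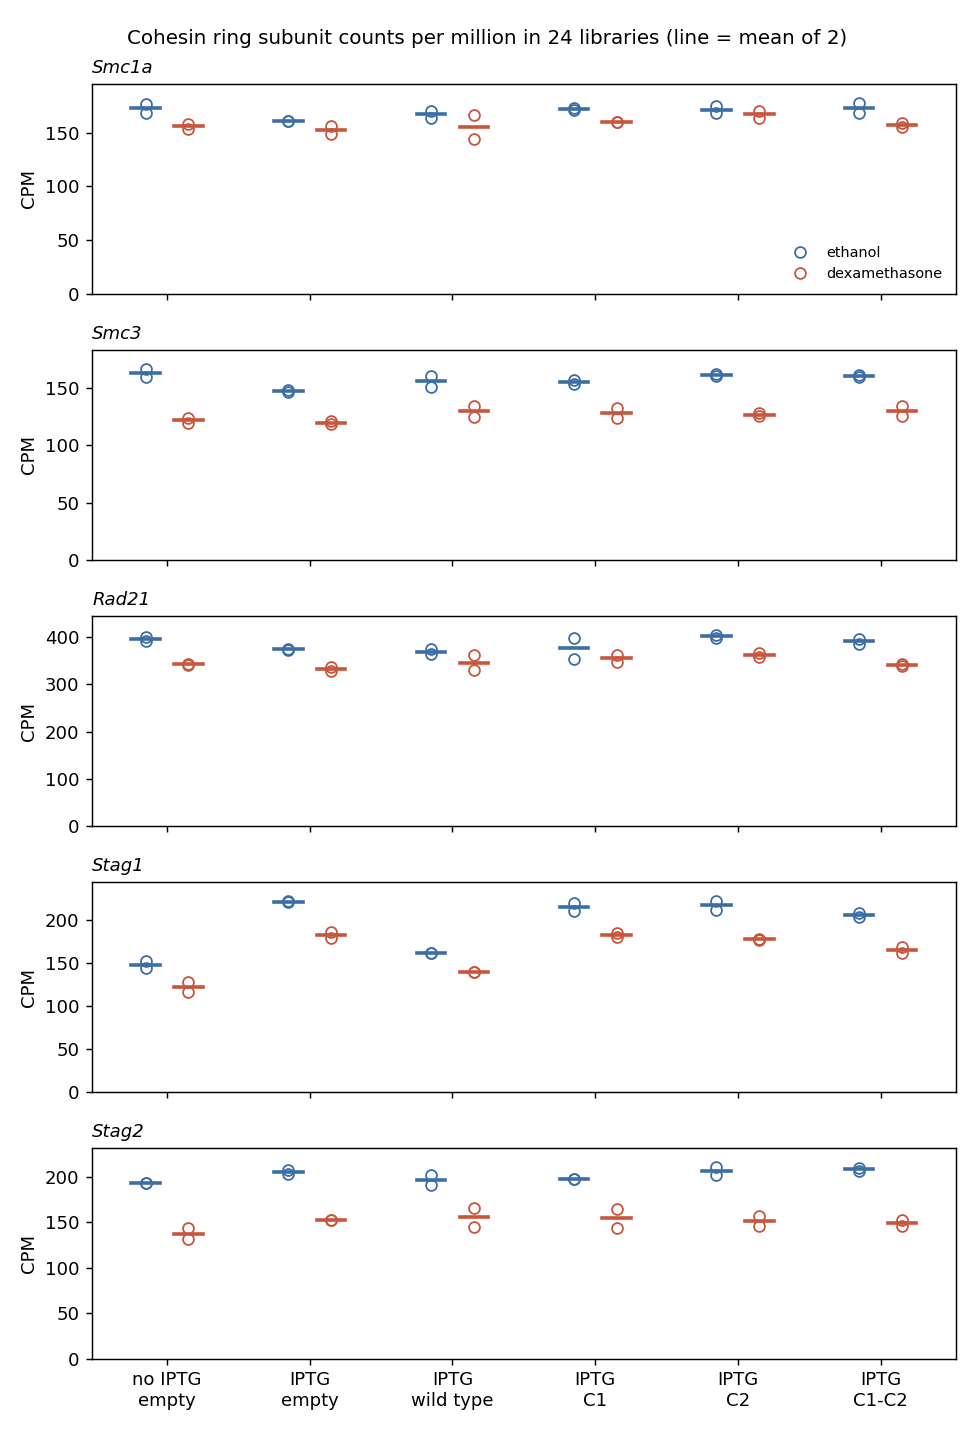
Library-size-scaled counts (CPM) of Smc1a, Smc3, Rad21, Stag1 and Stag2 in each of the 24 libraries (circles) by cell state, with the mean of the 2 replicates (line), in ethanol (blue) and dexamethasone (red); the axes start at 0 and differ between panels. Stag1 shows a low level without IPTG and with wild-type NIPBL (144 to 162 CPM in ethanol) and a high one with empty vector and the mutants (203 to 222 CPM), a step that the other 4 panels lack.

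The comparison of empty-vector cells with and without IPTG asks what induction of the hairpin does to the ring genes. In ethanol Stag1 was at 153 and 144 CPM without IPTG and at 221 and 222 CPM with it. In dexamethasone it was at 128 and 117 CPM without IPTG and at 187 and 179 CPM with it. The step was the same size in both treatments. The log2 fold change was 0.58 (SE 0.05, 95% interval 0.47 to 0.68), or 1.49-fold, in ethanol as in dexamethasone (adjusted p = 2.42e-08 and 1.26e-08, edgeR's quasi-likelihood test with Benjamini-Hochberg adjustment over the 16934 genes). The change exceeded in size that of 86.6% of the genes tested. Stag1 was called in all 10 alternative settings and in all 4 fits that left out 1 library, in both treatments.

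The other 4 members were not called. Stag1 was thus 1 of 5 members called, where 13.4% of all tested genes were called in ethanol (7.16% higher) and 16.9% in dexamethasone (8.36% higher). Stag2, the alternative subunit, was at 193.0 and 192.7 CPM without IPTG and at 203 and 208 CPM with it in ethanol. The difference was 0.09 on the log2 scale (95% interval -0.04 to 0.22, adjusted p = 0.404 with edgeR). In dexamethasone Stag2 was at 143 and 132 CPM without IPTG and 152 and 153 CPM with it, a difference of 0.15 (0.02 to 0.28, adjusted p = 0.11). The ring genes had small negative differences. Smc3 was at 159 and 166 CPM without IPTG and 148 and 147 CPM with it in ethanol. Its difference was -0.14 on the log2 scale (-0.25 to -0.04, adjusted p = 0.066 with edgeR). Smc1a and Rad21 differed by -0.10 and -0.08 in ethanol, and in dexamethasone Smc1a, Smc3 and Rad21 differed by -0.03, -0.03 and -0.05. Of these 8 tests of the other members 0 were called by edgeR or by DESeq2, and 2 had an unadjusted p under 0.05. The median log2 fold change of the 5 members was -0.08 in ethanol and -0.03 in dexamethasone, beside -0.01 and 0.00 over all genes.

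Stag1 was lower when the induced cells also carried wild-type NIPBL. In ethanol Stag1 was at 162.1 and 162.0 CPM with wild-type NIPBL, against 221 and 222 CPM with empty vector, a log2 fold change of -0.45 (SE 0.05, 95% interval -0.55 to -0.35), or 1.37-fold lower (adjusted p = 7.78e-06, edgeR). In dexamethasone it was at 139.9 and 140.2 CPM, against 187 and 179 CPM, a change of -0.38 (-0.49 to -0.28), or 1.31-fold lower (adjusted p = 3.55e-05, edgeR). The 2 wild-type libraries were almost identical in Stag1, even in dexamethasone, where they differ elsewhere. Without replicate 1 the change there was -0.38 and without replicate 2 -0.39, both called. Stag1 was again 1 of 5 members called, here against a background of 1.16% of genes in ethanol (0.526% lower) and 4.2% in dexamethasone (1.84% lower). For the other members the log2 differences ran from -0.07 to 0.11, with 0 of 8 tests called by edgeR or DESeq2 and 1 with an unadjusted p under 0.05. The knockdown and this comparison share their empty-vector libraries.

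Against cells without IPTG, the Stag1 level with wild-type NIPBL was not shown to differ in ethanol. The difference was 0.13 on the log2 scale (95% interval 0.02 to 0.23, adjusted p = 0.173 with edgeR; 5.06% of genes were called). In dexamethasone the wild-type libraries lay above 128 and 117 CPM, and Stag1 was called at 1.14-fold higher (log2 0.19, 0.09 to 0.30, adjusted p = 0.0133 with edgeR), 1 of 5 members where 10.7% of genes were called and 4.25% were called higher. That call is not stable: with a trend on GC content and length removed the difference was 0.07 (adjusted p = 0.484), and it was lost in 3 of 4 fits that left out 1 library. The libraries whose omission lost it were both wild-type replicates (0.19 and 0.18, adjusted p = 0.0569 and 0.0681) and replicate 2 without IPTG (0.13, adjusted p = 0.166). Stag2 in dexamethasone was at 145 and 166 CPM with wild-type NIPBL, a difference of 0.18 from cells without IPTG (0.05 to 0.31, adjusted p = 0.0741). Without replicate 1 of wild-type NIPBL it was called (0.27, adjusted p = 0.0165), and without replicate 2 the difference was 0.07 (adjusted p = 0.599).

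With the 3 mutants Stag1 lay near the level of the empty vector. In ethanol it was at 211 and 220.3 CPM with C1, at 212 and 222 CPM with C2 and at 203 and 208 CPM with C1-C2. In dexamethasone it was at 185 and 180.0 CPM with C1, at 178 and 178 CPM with C2 and at 162 and 169 CPM with C1-C2. C1-C2 was the lowest of the 3 in both treatments, and its libraries lay below both empty-vector libraries. Against empty vector the log2 differences of Stag1 ran from -0.04 to -0.002 for C1 and C2, with 95% intervals that stay between -0.14 and 0.10. For C1-C2 they were -0.11 (-0.21 to -0.01) in ethanol and -0.14 (-0.24 to -0.04) in dexamethasone, with adjusted p = 0.997 and 0.35 in edgeR. Of the 30 tests of members against empty vector 0 were called by edgeR or DESeq2, and 7 had an unadjusted p under 0.05. The background was as low: 0.272% and 0.537% of genes for C1, 0.224% and 0.644% for C2 and 0.0591% and 0.1% for C1-C2, in ethanol and dexamethasone in turn. The 7 were Stag1 with C1-C2 in both treatments and 5 differences above 0 in the ring genes, the largest of them Smc3 with C2 in ethanol (0.13, adjusted p = 0.375).

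Against wild-type NIPBL, Stag1 was higher with every mutant in both treatments. In ethanol the log2 fold change was 0.41 for C1, 0.42 for C2 and 0.34 for C1-C2 (adjusted p = 3.58e-05, 2.75e-05 and 0.000574, edgeR). In dexamethasone it was 0.38 for C1, 0.35 for C2 and 0.24 for C1-C2 (adjusted p = 4.41e-05, 0.00017 and 0.011, edgeR). No mutant library overlapped a wild-type library of the same treatment in Stag1, which with 2 libraries per group is a description and not a test. The share of all genes whose libraries separate in this way was not computed, nor was it for C1-C2 below empty vector. In each of the 6 comparisons Stag1 was the 1 member of 5 called, where in ethanol 2%, 2% and 0.768% of genes were called for C1, C2 and C1-C2, and in dexamethasone 5.33%, 5.17% and 1.41%. Genes called higher made 0.98%, 1.02% and 0.396% in ethanol and 2.63%, 2.59% and 0.673% in dexamethasone. The other 4 members were called in 0 of 24 tests by edgeR or DESeq2, with 1 unadjusted p under 0.05. Smc1a was called with C2 in dexamethasone when replicate 2 of wild-type NIPBL was left out (0.22, adjusted p = 0.0238 with edgeR). The Stag1 calls for C1 and C2 held without any 1 library. That for C1-C2 in ethanol held too, with 0.33 (adjusted p = 0.0166) when the replicate of disagreeing labels was left out. The call for C1-C2 in dexamethasone was lost in all 4 fits that left out 1 library (0.21 to 0.27, adjusted p from 0.0519 to 0.203) and in a fit of the compared libraries only (adjusted p = 0.0934). A difference between C1-C2 and the single mutants was not tested. The 6 comparisons share the wild-type libraries of each treatment.

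**Figure D2:**
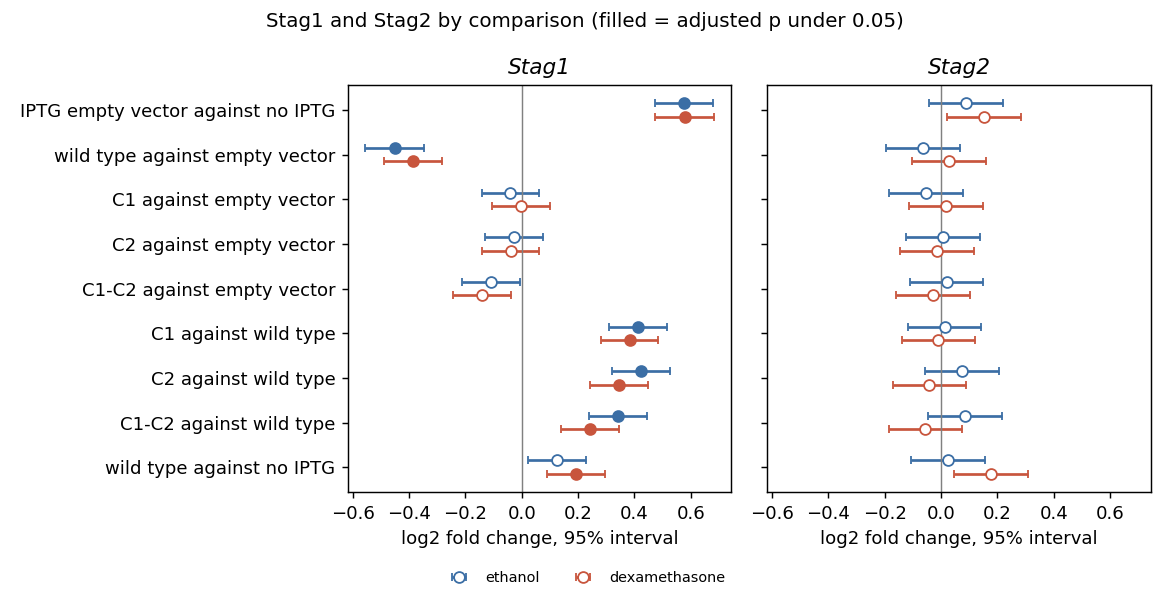
Log2 fold changes of Stag1 (left) and Stag2 (right) with 95% intervals for 9 comparisons of cell states in ethanol (blue) and dexamethasone (red), filled where the adjusted p was under 0.05. Stag1 shows 0.58 for IPTG, -0.45 and -0.38 for wild-type NIPBL and 0.24 to 0.42 for the mutants against wild type, while no Stag2 point is filled.

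The balance of the 2 alternative subunits followed Stag1. It is given here as the ratio of Stag1 to Stag2 counts per kb of exon in each library, with an exact 95% binomial interval that covers counting error only and reaches 2.49% to 3.70% of the ratio to each side. In ethanol the ratio was 0.556 and 0.526 without IPTG, 0.765 and 0.751 with IPTG and empty vector, and 0.597 and 0.564 with wild-type NIPBL. It was 0.748 and 0.782 with C1, 0.709 and 0.771 with C2 and 0.681 and 0.707 with C1-C2. The 4 libraries without IPTG or with wild-type NIPBL thus lay below the 8 others, and wild-type NIPBL lay just above the cells without IPTG.

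In dexamethasone the libraries split in the same way. The ratio was 0.628 and 0.623 without IPTG, 0.861 and 0.822 with empty vector and 0.678 and 0.592 with wild-type NIPBL. It was 0.790 and 0.877 with C1, 0.796 and 0.861 with C2 and 0.779 and 0.778 with C1-C2. The wild-type libraries straddle those without IPTG, and their gap comes from Stag2 (145 and 166 CPM) and not from Stag1 (139.9 and 140.2 CPM). Neighbours in the order do not differ beyond their spread among empty vector, C1 and C2, with means of 0.758 ± 0.0100, 0.765 ± 0.0236 and 0.740 ± 0.0440 in ethanol (SD, n = 2). C1-C2 stood at 0.694 ± 0.0190, wild-type NIPBL at 0.580 ± 0.0239 and cells without IPTG at 0.541 ± 0.0215.

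As a share of all Stag RNA per kb, Stag1 took 34.4% and 35.7% in ethanol without IPTG, 36.0% and 37.4% with wild-type NIPBL, and 40.5% to 43.9% in the 8 libraries with empty vector or a mutant. In dexamethasone these shares were 38.4% and 38.6%, 37.2% and 40.4%, and 43.8% to 46.7%. Per kb, Stag2 was thus the larger part of the pool in all 24 libraries. That order rests on the division by exon length: in counts, the ratio of Stag1 to Stag2 ran from 0.748 to 1.25 and was above 1 in 15 of the 24. The mean ratio with IPTG and empty vector was 1.40 times that without IPTG in ethanol and 1.35 times in dexamethasone. With wild-type NIPBL it was 0.766 and 0.755 times that with empty vector. The sum of Stag1 and Stag2 relative to Smc3, per kb, was 1.18 to 1.26 without IPTG, 1.27 to 1.40 with wild-type NIPBL and 1.46 to 1.66 in the 8 other ethanol libraries. In dexamethasone it was 1.20 to 1.26, 1.31 to 1.32 and 1.36 to 1.60. These ratios are given as a description and were not tested.

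**Figure D3:**
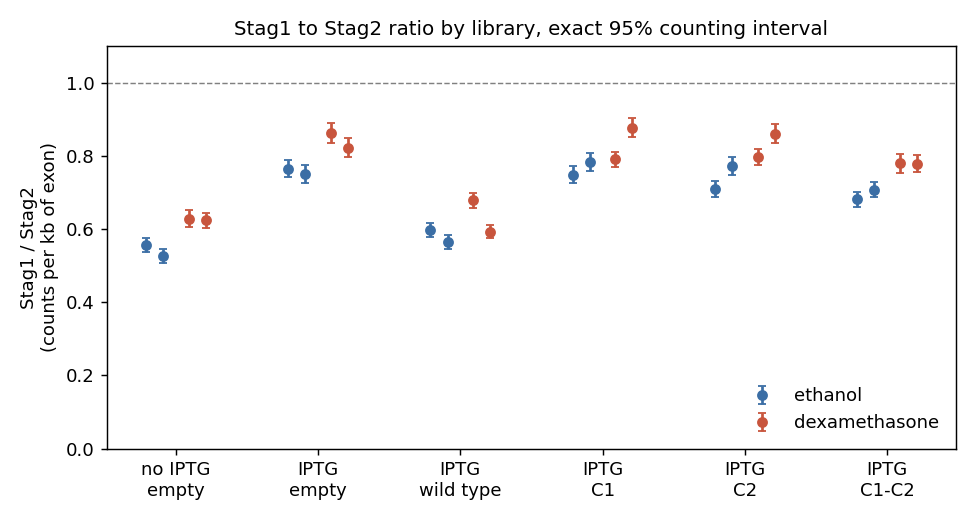
Ratio of Stag1 to Stag2, in counts per kb of exon, for each of the 24 libraries by cell state, with exact 95% counting intervals; ethanol is blue and dexamethasone red, and the dashed line marks a ratio of 1. In ethanol the libraries without IPTG (0.526 and 0.556) and with wild-type NIPBL (0.564 and 0.597) lie below the other 8 (0.681 to 0.782), and every library lies below 1.

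Scaled by library size, the members were lower in dexamethasone in most of the tests over the 6 cell states. Of the 30 tests 23 were called, all lower, with 24 unadjusted p under 0.05. Stag2 fell in 6 of 6 states, by 0.34 to 0.49 on the log2 scale, or 1.26 to 1.40-fold. Without IPTG it went from 193.0 and 192.7 CPM in ethanol to 143 and 132 CPM in dexamethasone. Smc3 fell in 6 of 6 states, by 0.27 to 0.42, and Stag1 in 6 of 6, by 0.21 to 0.31. Rad21 fell in 4 of 6 states and Smc1a in 1 of 6, the cells without IPTG (log2 -0.14, adjusted p = 0.0418 with edgeR), a call that was lost in all 4 fits that left out 1 library. The Rad21 call with C2 was also lost in all 4 (adjusted p from 0.0737 to 0.182), and that with empty vector without replicate 2 of either treatment (adjusted p = 0.098 in dexamethasone and 0.0716 in ethanol). With wild-type NIPBL 3 members were called, Stag1, Stag2 and Smc3, and the same 3 without replicate 1 of its dexamethasone libraries, with Stag2 at -0.24. Without replicate 2 all 5 were called, with Stag2 at -0.44 and Smc1a at -0.22.

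These calls have to be read against a large background. Dexamethasone called 38% of genes without IPTG, 32.5% with empty vector, 28.5% with wild-type NIPBL, 32.2% with C1, 32.5% with C2 and 32.3% with C1-C2, and in the same order of states 18.2%, 15.4%, 13.7%, 15.2%, 15.7% and 15.8% of genes were called lower. GC content moved with the treatment: the log2 deviation of the GC-richest from the GC-poorest fraction of genes, cut at the quartiles, ran from -0.29 to -0.14 in the ethanol libraries and from 0.06 to 0.30 in the dexamethasone libraries. This deviation also differed between cell states. In ethanol it was -0.29 and -0.23 without IPTG, -0.17 and -0.14 with empty vector and -0.24 and -0.18 with wild-type NIPBL. In dexamethasone it was 0.30 and 0.23, 0.27 and 0.27, and 0.06 and 0.10 in the same order. The 3 members with the least GC, Stag2, Stag1 and Smc3, were those called in all 6 states. With a smooth trend on GC content and length removed, 1 of the 30 tests was called, Rad21 with C1-C2 (log2 -0.15, adjusted p = 0.0405 with edgeR). Under it Stag1 ran from -0.09 to 0.02, Stag2 from -0.15 to 0.01 and Smc3 from -0.13 to -0.03. After the same removal Stag1 differed by 0.63 and 0.60 in the knockdown and by -0.50 and -0.53 with wild-type NIPBL against empty vector, in ethanol and dexamethasone, all 4 called. Its call with wild-type NIPBL against no IPTG in dexamethasone was lost (0.07, adjusted p = 0.484).

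**Figure D4:**
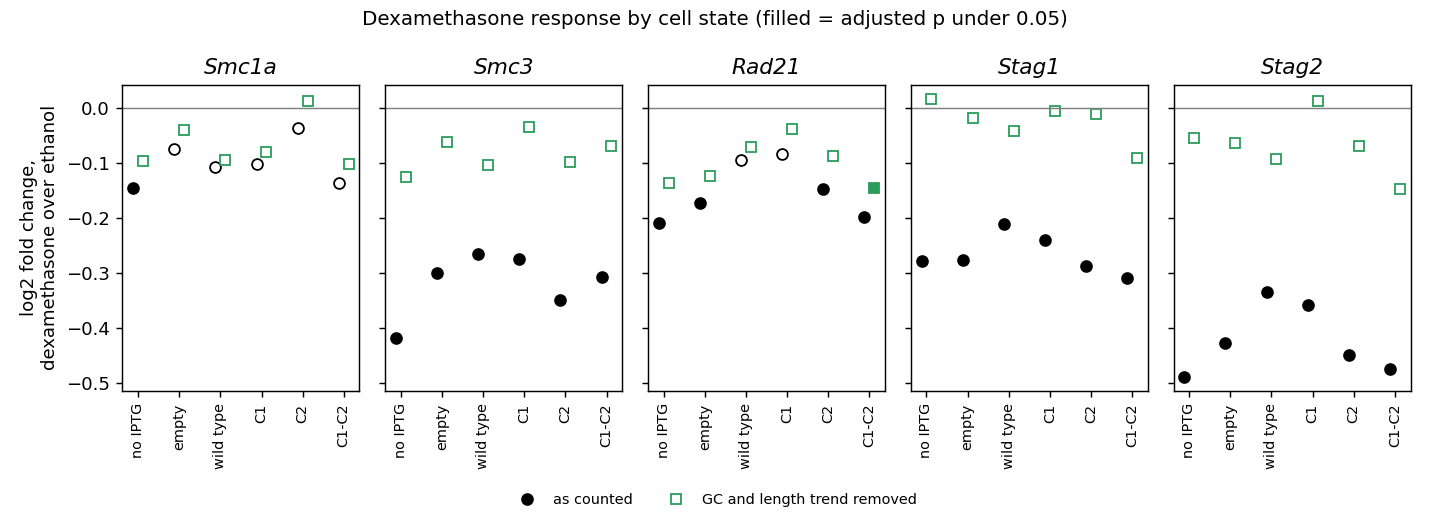
Log2 fold change of dexamethasone over ethanol for each member in the 6 cell states, from counts as they are (circles) and after removal of a trend on GC content and length (squares); filled symbols had an adjusted p under 0.05. The circles reach -0.49 for Stag2 and -0.42 for Smc3, whereas after the removal 1 square of 30 is filled, Rad21 with C1-C2.

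The dexamethasone response of the members did not change detectably with IPTG or with wild-type NIPBL. The difference between the response with empty vector and that without IPTG was 0.00 on the log2 scale for Stag1 (95% interval -0.14 to 0.15). The response with wild-type NIPBL less that with empty vector was 0.07 for Stag1 (-0.08 to 0.21). Over both differences 0 of 10 tests of members were called by edgeR or DESeq2 and 0 had an unadjusted p under 0.05, where 0.171% and 0.0118% of genes were called. Intervals over the members reached from -0.19 to 0.28, so differences within that range were not excluded.

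Genes that load, lock or remove cohesin were compared as a list of 14. The values given for this list are from counts as they are, with the trend on GC content and length not removed. In the knockdown in ethanol 3 fell, 0 rose and 11 were not called, and in dexamethasone 4 fell and 1 rose, with medians of -0.07 and -0.07 beside -0.01 and 0.00 over all genes. Nipbl, the target of the hairpin, is in the list and is counted among those that fell in both treatments. Its fall was set by the design and is not a finding about the list. Of all genes tested 6.24% and 8.49% were called lower in ethanol and dexamethasone, and 7.16% and 8.36% were called higher. Beside Nipbl, Pds5b, which helps hold or release the ring, fell 1.25-fold in ethanol (adjusted p = 1.23e-05, edgeR) and 1.19-fold in dexamethasone (adjusted p = 0.000164). Esco2, an acetyltransferase that locks cohesin in S phase, fell 1.25-fold and 1.18-fold. In dexamethasone Espl1, the separase that cuts RAD21, fell 1.17-fold, and Esco1, the other acetyltransferase, rose 1.12-fold. Wapl, which opens the ring, Pds5a, Mau2 and Ctcf were not called in either treatment, with log2 differences from -0.09 to 0.13. With wild-type NIPBL against empty vector 0 of 14 were called in ethanol, and in dexamethasone 1 rose, Pds5b by 1.17-fold (adjusted p = 0.00268, edgeR), where 1.16% of all genes were called in ethanol and 2.36% were called higher in dexamethasone.

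The sister complexes, condensin and SMC5/6, share the architecture of cohesin. The values given for them are also from counts as they are, with the trend on GC content and length not removed. Of their 14 genes 4 fell and 0 rose in the knockdown in each treatment, with medians of -0.12 and -0.11 beside -0.01 and 0.00 over all genes. The shares of all genes called lower were 6.24% and 8.49%, and those called higher were 7.16% and 8.36%. In ethanol these 4 were Ncapg2 (1.27-fold), Ncapd3 (1.20-fold), Smc2 (1.15-fold) and Smc4 (1.13-fold), all of condensin. In dexamethasone they were Ncapd3 (1.21-fold), Ncapg2 (1.20-fold), Ncaph2 (1.14-fold) and Smc5 (1.12-fold). With 14 genes, 0 called higher beside 7.16% and 8.36% of all genes does not set the list apart. With wild-type NIPBL in dexamethasone 3 of the 14 rose against empty vector, where 2.36% of all genes were called higher: Smc5 1.19-fold, Ncapg2 1.15-fold and Ncapd3 1.13-fold.

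Across the 24 libraries, after the mean of each treatment was subtracted from log2 CPM, Smc1a, Smc3 and Rad21 correlated more with each other than with Stag1 or Stag2. Pearson's r, given as a description over libraries that share treatment and cell state, was 0.64 for Smc1a with Smc3, 0.65 for Smc1a with Rad21 and 0.65 for Smc3 with Rad21. Stag1 had r of 0.05, -0.13 and 0.08 with Smc1a, Smc3 and Rad21, and 0.54 with Stag2. Stag2 ranked only 1936 among the 10689 genes compared for likeness to Stag1, and Stag1 ranked 866 for likeness to Stag2. The 5 named genes most like Stag1 were Rab32 (r = 0.98), a small GTPase, Tfap2a (0.96), a transcription factor, Neto2 (0.96), Marcks (0.96), a substrate of protein kinase C, and Hspb8 (0.95), a small heat shock protein. They were chosen for following Stag1 over these libraries, so their differences in the knockdown and with wild-type NIPBL are set by the choice and are not tested. Rab32 was 1.59-fold and 1.64-fold higher in the knockdown, in ethanol and dexamethasone, and Hspb8 1.21-fold and 1.20-fold. The genes most like Stag2 were Tmx3 (0.90), Acsl4 (0.88), Dnm1l (0.85), Ccdc50 (0.85) and Pnrc2 (0.85).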

How the data were processed

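Stranded total RNA libraries were sequenced for 12 groups of 2. The deposited values are whole-number counts per gene name, with exon length in bases in a column of another kind. Per the submitters' processing notes the authors used bcl2fastq 2.20, cutadapt 1.18, STAR 2.7.0f and featureCounts (Subread 2.0.3) on mm10. The annotation release, the strand setting and the treatment of reads with several alignments are not given in the sources used here. All 55341 gene names are in GENCODE vM21, 55297 with the same coordinates, and that release gave positions, GC content and transcripts.

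Counts were fitted with edgeR 4.0.16 (quasi-likelihood, robust, TMM factors, its low-count filter) in R 4.3.3, with a mean for each group and 12 residual degrees of freedom, for 26 comparisons. Calls are at an adjusted p under 0.05, adjusted over all 16934 genes tested. Standard errors follow from the F statistic. CPM use TMM-scaled library sizes. Alternatives were DESeq2 1.42.0, other factors and filters, replicate blocks, removal of a smooth trend on GC content and length, and each library left out. The fit was also checked on simulated counts. The members, the lists and the comparisons were chosen with earlier results of these data known. Named genes are the members, Nipbl, up to 4 called genes of smallest adjusted p per list in the knockdown, and the 5 most correlated with Stag1 and with Stag2. Wapl, Pds5a, Mau2 and Ctcf, and list genes called with wild-type NIPBL, were named after their values were seen.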

Additional observations from a re-analysis of the deposited data

How the results depend on the processing

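The Stag1 calls in the knockdown, with wild-type NIPBL against empty vector and for C1 and C2 against wild-type NIPBL held in all 10 alternative settings and without any 1 library. Over all counts of called members 239 of 260 comparisons of a setting with the fit reported stayed within 1.5 times. With the GC and length trend removed, the count of members called in the dexamethasone responses was 0 in 5 states and 1 in C1-C2, and 0 in all 6 with a replicate block within treatment added. Stag1 then read 0.017 and, with the block, 0.046 without IPTG, and with the block 0.013 with empty vector, 0.026 with C1 and 0.021 with C2. Stag2 read 0.014 and 0.047 with C1, and Smc1a 0.014 with C2. For wild-type NIPBL against no IPTG in dexamethasone the count was 0 with the trend removed, with the trend and a block, with no filter and with only the libraries compared, and 2 with a replicate block. For C1-C2 against wild-type NIPBL in dexamethasone it was 0 with only the libraries compared.

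The labels do not say that a replicate number marks a shared batch, and not every pair of libraries of equal number had correlated deviations, so the numbers were not taken to pair the libraries. In ethanol r ran from -0.07 to 0.39 with a median of 0.25, and 11 of 15 pairs were over 0.1. In dexamethasone it ran from -0.32 to 0.43 with a median of 0.05, and 6 of 15 were. The block moved the genes called in the knockdown in ethanol from 2270 to 2922. With a replicate block, alone or within treatment, the knockdown in ethanol had 2 members called, Smc3 being added (-0.14, adjusted p = 0.0433 and 0.0489, edgeR). With trend and block, C1-C2 against empty vector in dexamethasone had 1, Stag1 (-0.22, adjusted p = 0.0436).

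Differences near 0 changed sign. Stag2 with wild-type NIPBL against empty vector in dexamethasone read -0.17 with the trend removed, with or without a block. Stag1 with C1 against empty vector in dexamethasone read 0.0073 with DESeq2, 0.0068 with RLE factors, 0.0050 with no filter and 0.00048 without the 2 most abundant genes. The Stag1 difference of responses between empty vector and no IPTG read -0.0075 with DESeq2, -0.034 with the trend removed, -0.033 with trend and block, -0.0082 with RLE factors, -0.0072 with no filter, -0.013 with only the libraries compared and -0.0054 without the 2 most abundant genes, and that between wild-type NIPBL and empty vector -0.025 and -0.024 with the trend removed. The causes were not tested.

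Without division by length the mean ratio of Stag1 to Stag2 was 0.770 without IPTG, 1.08 with empty vector, 0.827 with wild-type NIPBL, 1.09 with C1, 1.05 with C2 and 0.988 with C1-C2 in ethanol, and 0.891, 1.20, 0.905, 1.19, 1.18 and 1.11 in dexamethasone, so whether Stag1 exceeds Stag2 depends on the length used.

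With 1 library left out, the count of members called ran from 1 to 2 for C2 against wild-type NIPBL in dexamethasone, from 0 to 1 for wild-type NIPBL against no IPTG in dexamethasone and from 3 to 5 for the dexamethasone response with wild-type NIPBL, and it was 0 each time for C1-C2 against wild-type NIPBL in dexamethasone. In these fits the log2 difference of Smc1a ran from -0.065 to 0.0038 and that of Smc3 from -0.050 to 0.00043 in the knockdown in dexamethasone. With wild-type NIPBL against empty vector, Rad21 ran from -0.040 to 0.0034 in ethanol, and in dexamethasone Smc1a ran from -0.085 to 0.12, Rad21 from -0.0088 to 0.12 and Stag2 from -0.077 to 0.12. Stag1 ran from -0.032 to 0.029 with C1 against empty vector in dexamethasone, from -0.058 to 0.0070 with C2 in ethanol, and from -0.063 to 0.070 in the difference of responses between empty vector and no IPTG. With groups of 2, a group left with 1 library is assumed to vary like the others.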
